A study of Mus musculus with 12 samples.

Results

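Endothelial cells line the vessels, and a small set of transcription factors sets up and keeps their identity. The 9 genes described here are the SOXF group Sox7, Sox17 and Sox18, the ETS factors Erg, Fli1, Ets1 and Elk3, and Tal1 with its partner Lmo2. They were chosen by gene symbol, as a textbook set of endothelial lineage factors, from the 27825 genes of the deposited table. Earlier results of these data were known when the set was chosen. All 9 were found, and all 9 passed the filter on low values (a mean of at least 10 normalized counts over the 12 libraries), as did 22238 genes in all. In the table their identifiers are ENSMUSG00000063060 (Sox7), ENSMUSG00000025902 (Sox17), ENSMUSG00000046470 (Sox18), ENSMUSG00000040732 (Erg), ENSMUSG00000016087 (Fli1), ENSMUSG00000032035 (Ets1), ENSMUSG00000008398 (Elk3), ENSMUSG00000028717 (Tal1) and ENSMUSG00000032698 (Lmo2).

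The study profiled sorted endothelial cells of male mice by bulk RNA-seq. All mice, on either diet, were ROSA26-eYFP+/+ Cdh5-CreERT2+: a tamoxifen-inducible Cre, driven by the endothelial cadherin gene Cdh5, switches on a yellow fluorescent protein. All had eaten tamoxifen diet for 2 weeks from the age of 6 weeks. From the age of 8 weeks they received either normal chow (5.8% fat) or a high fat diet (60% fat) for 12 to 13 weeks; the 2 arms are called chow and high fat below. The cells came from the mesentery, the membrane that carries the gut's vessels, or from the epididymal fat pads. That gives 4 groups of 3 libraries, called A, B and C as in the labels, and each sample combined the tissue of 6 mice. The protocol speaks of 2 independent replicates although the titles carry 3 letters, and nothing says how the pools relate, so p-values measure the spread between these libraries, part of which may be technical. The comparisons ask how the factors differ between the vessel beds on each diet, and how they differ between the diets in each bed.

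The SOXF proteins bind DNA through a high mobility group box and act partly in each other's place in the vessel wall. Sox17 is known for arterial identity, Sox18 for switching on the lymphatic programme in venous cells of the embryo, and Sox7 for early vessel formation. ETS factors bind a GGAA core through their ETS domain. Many endothelial enhancers hold this core, and Erg and Fli1 keep genes such as Cdh5 active. Tal1 is a basic helix-loop-helix factor of blood and vessel progenitors, and Lmo2 is the LIM-only adaptor that ties it to Ldb1 and GATA factors. Fli1, Ets1, Tal1 and Lmo2 are also used by blood cells.

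Read totals over the listed genes ranged from 8348897 to 25397963, and 3 reads, the limit that a count of 0 allows, were worth 2.12 to 4.22 normalized counts. The fewest reads behind a member's value were 54, for Tal1, and the most were 13739, for Sox18. Endothelial identity of the libraries was checked on 12 markers (Cdh5, Pecam1, Tek, Tie1, Kdr, Flt1, Egfl7, Esam, Emcn, Robo4, Cldn5 and Icam2), none of which was listed at 0 in a whole group. Their mean log2 level was 12.90 to 13.32 in mesentery on chow, 12.93 to 13.09 in mesentery on high fat, 12.61 to 12.83 in epididymal fat on chow and 11.66 to 12.65 in epididymal fat on high fat. The epididymal libraries lay below the mesenteric ones on both diets. Markers of other cells moved as well. Summed macrophage markers ranged over 1562 to 7855 normalized counts in mesentery on chow, 4679 to 24236 there on high fat, 6347 to 88288 in epididymal fat on chow and 140089.9 to 352103 there on high fat. All 8 pancreatic acinar markers were lower in epididymal fat on both diets, and 7 of 8 fibroblast markers on chow and 8 of 8 on high fat were higher there. Also higher in epididymal fat were 5 of 7 lymphatic endothelial markers on chow and 0 on high fat (Flt4 was lower on both diets), 6 and 3 of 8 smooth muscle and pericyte markers, 5 and 5 of 7 platelet and erythroid markers, 7 and 0 of 8 adipocyte markers (Lipe was lower on high fat) and 4 and 1 of 6 mesothelial markers. No lymphocyte marker of 12 passed between the tissues. For diet in epididymal fat 3 adipocyte markers fell (Adipoq, Cfd and Retn) and 2 fibroblast markers rose, and in mesentery 1 adipocyte marker rose (Lep). The part of these other cells in the results below was not tested. In bulk samples, fewer cells of a type and less RNA per cell cannot be told apart.

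On the scale of normalized counts per kb of exon, which allows levels of different genes to be compared, Sox18 stood first of the 9 in every library and Tal1 last. The mean level over the 12 libraries was 4510 normalized counts per kb for Sox18, 923 for Lmo2, 749 for Fli1, 683 for Elk3, 403 for Sox17, 353 for Sox7, 274 for Ets1, 126 for Erg and 36.2 for Tal1. Erg was the eighth of 9 in each of the 12 libraries. Elk3 was the third in all mesenteric libraries and the fourth in all epididymal ones. The libraries of a group spread least for Erg (SD within groups 0.16 on the log2 scale) and most for Tal1 (0.62), the gene with the fewest reads. The plot of the 9 genes shows these levels library by library.

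**Figure D1:**
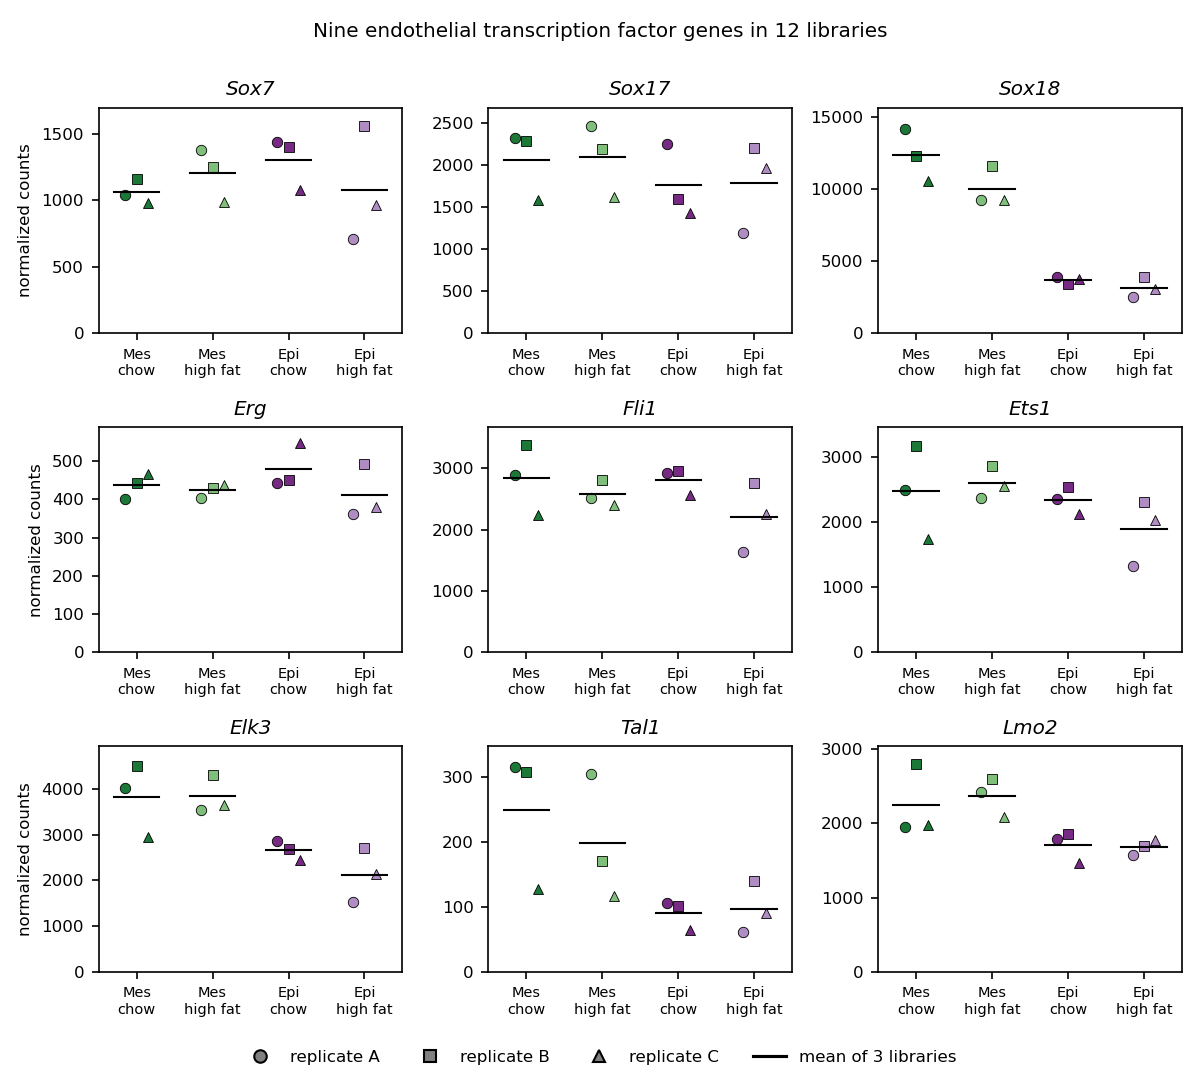
Normalized counts of the 9 genes (vertical axes, each from 0) in the 4 groups; each symbol is 1 library, its shape gives the replicate letter, and the bar is the mean of the 3 libraries. Sox18 in epididymal fat stays between 2492 and 3892, under every mesenteric library (9227 to 14180.1), while the groups of Sox7, Sox17, Erg and Fli1 overlap.

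Erg, Fli1 and Ets1 are related in their coding sequence, and reads could in principle be shared between them. The longest run of identical bases in GENCODE vM21 coding sequences was 22 for Erg and Fli1, 21 for Fli1 and Ets1 and 18 for Erg and Ets1, and whole transcripts gave no longer run in these 3 pairs. The SOXF genes are related to each other as well, and whether their reads were shared was not tested.

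Sox18 was lower in epididymal than in mesenteric endothelial cells on both diets. In mesentery it reached 14180.1, 12310.4 and 10582 normalized counts in libraries A, B and C on chow and 9240.2, 11614 and 9227 on high fat. In epididymal fat it reached 3872, 3416 and 3778 on chow and 2492, 3892 and 3068 on high fat. No epididymal library came near the lowest mesenteric one. The group means were 12357 ± 1800 (SD, n = 3) against 3689 ± 240.6 (SD, n = 3) on chow, and 10027 ± 1375 (SD, n = 3) against 3151 ± 704 (SD, n = 3) on high fat. On the log2(normalized count + 1) scale the change was -1.74 ± 0.20 (SE) on chow, 3.33-fold lower, with an adjusted p of 0.000125 in limma. On high fat, it was -1.69 ± 0.20 (SE), 3.22-fold lower, with an adjusted p of 0.000232 in limma. The 95% intervals were -2.18 to -1.30 and -2.13 to -1.24. The 2 tissue changes differed by 0.05 (95% interval -0.57 to 0.67).

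This was the member whose call held throughout. Sox18 passed the threshold in both tissue comparisons under all 24 alternatives, with log2 changes of -1.86 to -1.29 on chow and -1.87 to -0.81 on high fat. The sample descriptions carry numbers in 2 ranges, and with the libraries numbered 50 to 53 alone the change was -1.86 on chow and -1.58 on high fat. The libraries numbered 87 and 88 leave 1 per group, so they give values only: 10582 against 3778 normalized counts on chow and 9240.2 against 2492 on high fat. The smallest changes came after the libraries were rescaled to the same mean log2 level of the 12 endothelial markers, at -1.29 on chow and -0.81 on high fat. Sox18 thus lay below mesentery also relative to these markers, where 2.2% of all genes on chow and 1.07% on high fat were lower and passed. Cldn5, 1 of the 12 markers, was higher in epididymal fat and raised their mean. The median change of the 12 was -0.92 on chow and -1.05 on high fat. A marker mean without Cldn5 was not tested.

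Across all genes tested, 12.8% passed the threshold on chow and 8.34% on high fat, in either direction. The share that was lower and passed was 5.47% on chow and 3.43% on high fat, and 2.47% of genes were lower and passed on both diets. Of the 9 members, 1 passed on chow (Sox18) and 2 on high fat (Sox18 and Elk3), all of them lower. At an unadjusted p under 0.05 there were 3 members on chow and 4 on high fat, beside 25.4% and 21% of all genes. With 9 members these counts are a description only. Of the genes called on chow 57.2% were higher in epididymal fat, and 67.3% were when libraries were scaled to the same total. On high fat the corresponding shares were 58.9% and 35.3%. Scaling to the same total moved the median of all genes by 0.13 for diet in mesentery, -0.14 for diet in epididymal fat and -0.18 for tissue on high fat, and scaling to the endothelial markers moved it by 0.12, 0.56 and 0.85, and by 0.41 for tissue on chow. On the endothelial scale the median tissue change of all genes was thus 0.34 on chow and 0.91 on high fat, 18.8% and 31.5% of all genes passed, and 16.6% and 30.5% were higher and passed. Values on that scale are read against these shifts. Of the 9 members, 5 lay below the median gene on chow and 9 on high fat.

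**Figure D2:**
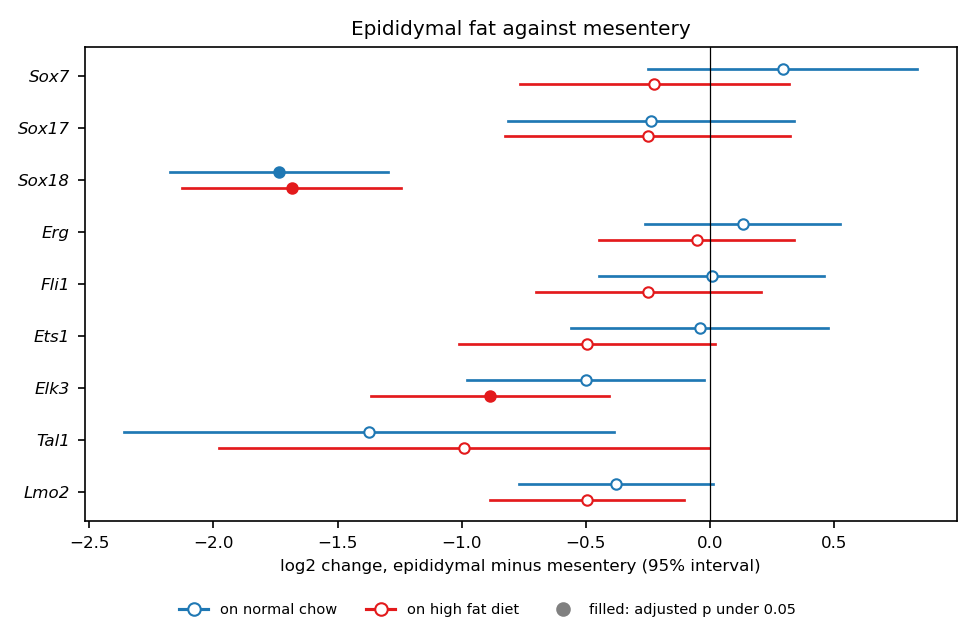
Log2 change of each gene in epididymal fat against mesentery (horizontal axis), on chow and on high fat; points are limma estimates, lines are 95% intervals and filled points passed an adjusted p under 0.05. Sox18 lies at -1.74 and -1.69 and Elk3 at -0.50 and -0.88; rescaled to the endothelial markers, Sox17, Ets1 and Lmo2 turn positive on chow, and Sox7, Sox17, Erg, Fli1, Ets1 and Lmo2 on high fat, where the median of all genes is 0.34 and 0.91.

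Sox7 and Sox17 did not pass the threshold in either tissue comparison under the authors' scaling. Sox7 was at 1043, 1160.3 and 979.9 normalized counts in mesentery on chow and 1443, 1400.5 and 1083 in epididymal fat on chow. High fat values were 1378, 1250.1 and 991 in mesentery and 713, 1562 and 963 in epididymal fat. Epididymal library A on high fat was the lowest of all 12 for Sox7 and library B of the same group the highest. The log2 tissue change was 0.29 on chow (95% interval -0.25 to 0.84; adjusted p = 0.525 in limma) and -0.22 on high fat (-0.77 to 0.32; adjusted p = 0.740 in limma). Sox17 was at 2314, 2287 and 1578 and 2463, 2186 and 1612 in mesentery on chow and on high fat, and at 2248, 1588 and 1431 and 1194, 2200.0 and 1961 in epididymal fat. Its groups overlapped, with log2 changes of -0.24 (95% interval -0.81 to 0.34) on chow and -0.25 (-0.83 to 0.32) on high fat. Since the intervals reach that far below 0, equal levels are not shown. Rescaled to the endothelial markers both turned or stayed higher in epididymal fat: Sox7 by 0.74 on chow (adjusted p = 0.00796 in limma) and 0.65 on high fat (adjusted p = 0.00947), Sox17 by 0.63 on high fat (adjusted p = 0.0326). On high fat both lay below the median of all genes on that scale (0.91), so the calls there set neither apart from other genes. On chow Sox7 lay above that median (0.34), where 16.6% of all genes were higher and passed. Reads of Sox17 could include some of Gm37587, a transcript on the opposite strand that overlaps it by 804 bases in the vM21 annotation, whose own mean was 15 normalized counts.

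The make-up of the SOXF group therefore differed between the beds. Per kb of exon, Sox18 made up 91.6%, 90.1% and 91.2% of the summed SOXF level in mesenteric libraries A, B and C on chow and 85.9%, 89.5% and 89.9% on high fat. In epididymal fat it made up 72.5%, 73.6% and 78.8% on chow and 76.7%, 72% and 72.9% on high fat. No epididymal library reached the lowest mesenteric one. The share of Sox7 was 3.31% to 4.17% and 4.73% to 6.29% in mesentery on chow and on high fat, and 11.1% to 14.8% and 10.8% to 14.2% in epididymal fat. Sox17 took 4.62% to 5.68% and 5.33% to 7.78% in mesentery, and 10.1% to 14.3% and 12.5% to 15.8% in epididymal fat. All 3 shares were separated between the tissues on both diets (exact permutation test, two-sided p = 0.1 each, the smallest that 3 against 3 libraries allow). The shares of a library add up to the whole, so a lower share of Sox18 raises those of Sox7 and Sox17. The 3 separations are thus not independent results, and the levels of Sox7 and Sox17 themselves overlapped between the tissues. The log2 ratio of Sox18 to Sox7, which does not depend on the scaling of a library, averaged 3.53 ± 0.20 (SD, n = 3) in mesentery and 1.5 ± 0.27 (SD, n = 3) in epididymal fat on chow. On high fat, it averaged 3.06 ± 0.27 (SD, n = 3) and 1.60 ± 0.25 (SD, n = 3). In mesentery this ratio was 3.41 to 3.76 on chow and 2.74 to 3.22 on high fat, a pair of ranges that do not overlap (exact permutation test, two-sided p = 0.1, again the smallest possible); in epididymal fat the ranges overlapped (p = 0.7, exact). In all, 36 comparisons of ratios and shares among members were made, so none could pass after adjustment.

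**Figure D3:**
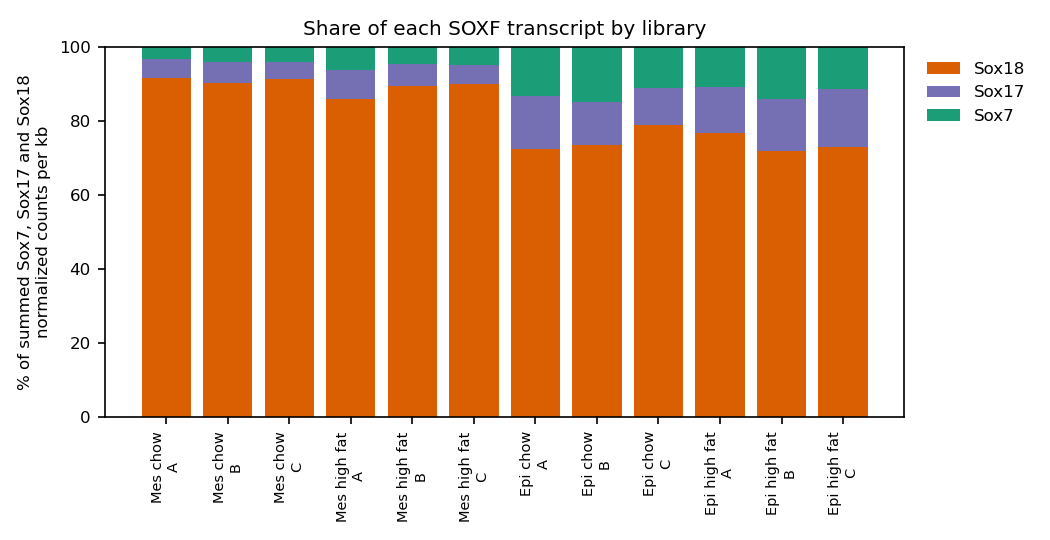
Share of Sox18, Sox17 and Sox7 in their summed normalized counts per kb of exon (vertical axis, percent), 1 bar per library. Sox18 takes 85.9% to 91.6% in the 6 mesenteric libraries and 72% to 78.8% in the 6 epididymal ones.

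Among the ETS members, Elk3 was lower in epididymal fat, past the threshold on high fat. Elk3, also called Net, is a ternary complex factor that acts beside serum response factor and can repress its targets. On chow it was at 4021, 4498 and 2937 normalized counts in mesentery and 2856, 2678 and 2450.0 in epididymal fat. After the high fat diet it was at 3542, 4301 and 3653 in mesentery and 1523, 2698 and 2148 in epididymal fat. Every epididymal library lay below every mesenteric one within a diet, though on chow mesenteric library C (2937) was close to epididymal library A (2856). The log2 change was -0.50 ± 0.22 (SE) on chow, with an adjusted p of 0.175 in limma, and -0.88 ± 0.22 (SE) on high fat, 1.85-fold lower (95% interval -1.36 to -0.41; adjusted p = 0.0270 in limma). The difference between these changes was -0.38 (95% interval -1.06 to 0.29; adjusted p = 1 in limma).

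The call for Elk3 on high fat was not stable. It was lost in limma without mesenteric library A (adjusted p = 0.0586), B (0.118) or C (0.0508), and without epididymal library A (0.0755) or C (0.0852). It was also lost with TMM scaling in limma (adjusted p = 0.121) and in edgeR's quasi-likelihood test on recovered reads (0.139). Its direction was the same in all 24 alternatives. Rescaled to the endothelial markers the change was -0.06 on chow and -0.01 on high fat (adjusted p = 0.985 in limma). Cdk17 overlaps Elk3 by 316 bases on the opposite strand, at a mean of 812 normalized counts and a log2 change of -0.24 on chow. Whether the counting used strand is not given in the sources used here.

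For Fli1 no difference between the beds was detected on chow. It was at 2898, 3379.8 and 2236 normalized counts in mesentery and 2928, 2958 and 2565 in epididymal fat, a log2 change of 0.01 (95% interval -0.45 to 0.46; adjusted p = 0.989 in limma), which does not show equal levels. Rescaled to the endothelial markers it was 0.45 (adjusted p = 0.0526 in limma), beside 0.34 for the median gene. In the high fat groups it was at 2523, 2807 and 2399 in mesentery and 1630.1, 2754 and 2257 in epididymal fat, where library A alone lay far below the others. The log2 change was -0.25 (95% interval -0.70 to 0.21; adjusted p = 0.612 in limma), and it turned to 0.63 when rescaled to the endothelial markers (adjusted p = 0.00597 in limma), beside 0.91 for the median gene. Fli1 is made by macrophages and platelets too. Of 12 macrophage markers 5 were higher in epididymal fat on chow and 9 on high fat, and of the platelet genes Pf4 was higher on both diets while Ppbp and Itga2b did not pass; their part in the Fli1 level was not tested.

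Ets1, which acts in growing vessels downstream of VEGF, was at 2493, 3170.1 and 1743 and 2347, 2541 and 2123 normalized counts in mesentery and epididymal fat on chow. Its log2 change there was -0.04 (95% interval -0.56 to 0.48). With high fat it was at 2369, 2865 and 2560.1 and 1328, 2307 and 2026, and the groups did not overlap. The log2 change of -0.49 (95% interval -1.01 to 0.02; adjusted p = 0.265 in limma) did not pass the threshold, except with libraries scaled to the same total (-0.68, adjusted p = 0.0277 in limma). Relative to the endothelial markers it was 0.38, below the median gene on that scale (0.91). The groups again did not overlap, now with the epididymal libraries higher.

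Erg varied least. It was at 401, 443 and 466 normalized counts in mesentery on chow, 404, 428 and 438 in mesentery on high fat, 442, 451 and 546 in epididymal fat on chow and 362, 493 and 380.1 in epididymal fat on high fat. From the lowest to the highest library is a factor of 1.51, against 5.69 for Sox18. The log2 tissue change was 0.13 (95% interval -0.26 to 0.53) on chow and -0.05 (-0.45 to 0.34) on high fat. Under the authors' scaling neither interval reached beyond 0.53 in size. Rescaled to the endothelial markers the changes were 0.57 on chow and 0.82 on high fat, beside 0.34 and 0.91 for the median gene.

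Tal1, the least abundant of the 9, had its higher values in mesentery and a wide spread. On chow it was at 314, 307 and 127 normalized counts in mesentery and 106, 102 and 64.3 in epididymal fat, without overlap. On high fat, it was at 305, 170.5 and 117 and 60.7, 139.6 and 89.9, with overlap. Mesenteric libraries A and B on chow and A on high fat reached 305 to 314, while the other 3 mesenteric libraries lay between 117 and 170.5. The log2 change was -1.37 ± 0.46 (SE) on chow (95% interval -2.36 to -0.38; adjusted p = 0.0683 in limma) and -0.99 ± 0.46 (SE) on high fat (-1.98 to -0.0020; adjusted p = 0.237 in limma). On chow it passed in 5 of 24 alternatives. In limma these were a filter at a mean of 50 (adjusted p = 0.0444), the number range as a covariate (0.0488), the libraries numbered 50 to 53 alone (0.00796) and the data without mesenteric library C on chow (0.0151); DESeq2 on recovered reads gave 0.0240.

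Lmo2 was at 1946, 2796 and 1978 and 1793, 1856 and 1469.6 normalized counts on chow in mesentery and epididymal fat, and at 2423, 2600.1 and 2088 and 1572, 1690.5 and 1768 on high fat. Its groups did not overlap on either diet, although mesenteric library A on chow lay only slightly above epididymal library B. The log2 changes were -0.38 ± 0.18 (SE) on chow (adjusted p = 0.211 in limma) and -0.49 ± 0.18 (SE) on high fat (adjusted p = 0.120 in limma). On high fat, it passed in DESeq2 (adjusted p = 0.0320) and in limma with libraries scaled to the same total (0.0389), and it turned to 0.38 when rescaled to the endothelial markers. In all, 4 members were lower without overlap on chow (Sox18, Elk3, Tal1 and Lmo2), beside 12.7% of all genes, and 4 on high fat (Sox18, Elk3, Lmo2 and Ets1), beside 11.2% of all genes. On both diets it was 3 (Sox18, Elk3 and Lmo2), beside 6.21% of all genes. The median log2 change of the 9 was -0.24 on chow (all genes -0.08) and -0.49 on high fat (all genes 0.06). It was 0.20 and 0.38 when rescaled to the endothelial markers (all genes 0.34 and 0.91). Rescaling shifts members and all genes almost equally, so lying below all genes on the marker scale too adds no separate support.

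Among the partners with which Tal1 and Lmo2 form DNA-bound complexes, 4 differed between the tissues. Of 12 tested, 1 was higher and 1 lower on chow, and 1 was higher and 3 lower on high fat. Beside these counts, 12.8% of all genes passed on chow and 8.34% on high fat, in either direction. Ldb2, a LIM-domain binding adaptor, was lower on both diets: it was at 4984, 5046 and 3685 normalized counts in mesentery and 1743, 1916 and 1962 in epididymal fat on chow (log2 change -1.27, adjusted p = 0.00135 in limma), and changed by -1.22 on high fat (adjusted p = 0.00275 in limma). Ssbp2, a single-stranded DNA binding protein that stabilises the LIM adaptors, went the other way. It was at 188, 219 and 284 in mesentery and 1252, 991 and 864 in epididymal fat on chow, with log2 changes of 2.17 on chow (adjusted p = 4.29e-05 in limma) and 1.92 on high fat (adjusted p = 0.000148 in limma). Gata2, a zinc finger factor of endothelial and blood progenitor cells, was lower on high fat (-1.41, adjusted p = 0.00455 in limma), as was Ldb1 (-0.69, adjusted p = 0.0336 in limma). Lyl1 and Runx1, which blood cells also use, reached no more than 40.5 and 243 normalized counts in any library. The list's median was -0.03 on chow and -0.38 on high fat (all genes -0.08 and 0.06). Rescaled to the endothelial markers it was 0.41 and 0.49 (all genes 0.34 and 0.91). On that scale 3 were higher and 1 lower on chow, beside 16.6% and 2.2% of all genes, and 5 were higher on high fat, beside 30.5%.

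No member passed the threshold for diet in either tissue. In mesentery, where 0.0135% of all genes passed, the log2 change on high fat ran from -0.34 (Tal1) to 0.17 (Sox7), with a median of 0.02 (all genes -0.002). In epididymal fat, where 0.549% passed, it ran from -0.38 (Fli1) to 0.05 (Tal1), with a median of -0.25 (all genes 0.10). None of the 9 was separated between the diets in either tissue, beside 9.61% and 13.5% of all genes. At an unadjusted p under 0.05 limma gave 0 members in mesentery, beside 6.15% of all genes, and 0 in epididymal fat, beside 6.94%, and edgeR and DESeq2 on recovered reads gave 0 adjusted calls in both. The tightest limits were those of Lmo2 and Erg. For Lmo2 the 95% interval was -0.29 to 0.49 in mesentery and -0.41 to 0.37 in epididymal fat, and for Erg it was -0.44 to 0.35 and -0.62 to 0.17. The loosest were those of Tal1, -1.32 to 0.65 and -0.94 to 1.03.

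In epididymal fat 7 of 9 members had a negative diet change, and single libraries weighed on their size in either direction. Library A of epididymal fat on high fat held the lowest value of 8 of the 9 members over all 12 libraries (the exception was Lmo2). Its 12 endothelial markers were also the lowest, with a mean log2 level of 11.66. Without it 6 of 9 were still negative, Lmo2 having turned to 0.026. The median diet change of the members without it was -0.09 in place of -0.25, and the median tissue change on high fat was -0.26 in place of -0.49. Leaving out library B of that group instead, which lay above its group mean for all 9, made the diet changes more negative. They were then -0.65 for Sox7 and -0.55 for Fli1 and Elk3, and Sox17 and Tal1 turned to -0.17 and -0.26. All 9 diet changes in epididymal fat were positive, with a median of 0.32, when the libraries were rescaled to the endothelial markers. The median of all genes was then 0.65, and all 9 members lay below it. They lay below it (0.10) under the authors' scaling as well, since rescaling shifts all genes almost equally. For the difference of the diet effects between the tissues limma called 0 members, beside 0.0045% of all genes, and gave 0 at an unadjusted p under 0.05, beside 4.71%; edgeR and DESeq2 gave 0 adjusted calls. The difference ran from -0.52 for Sox7 (95% interval -1.28 to 0.25) to 0.38 for Tal1 (-1.01 to 1.78).

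**Figure D4:**
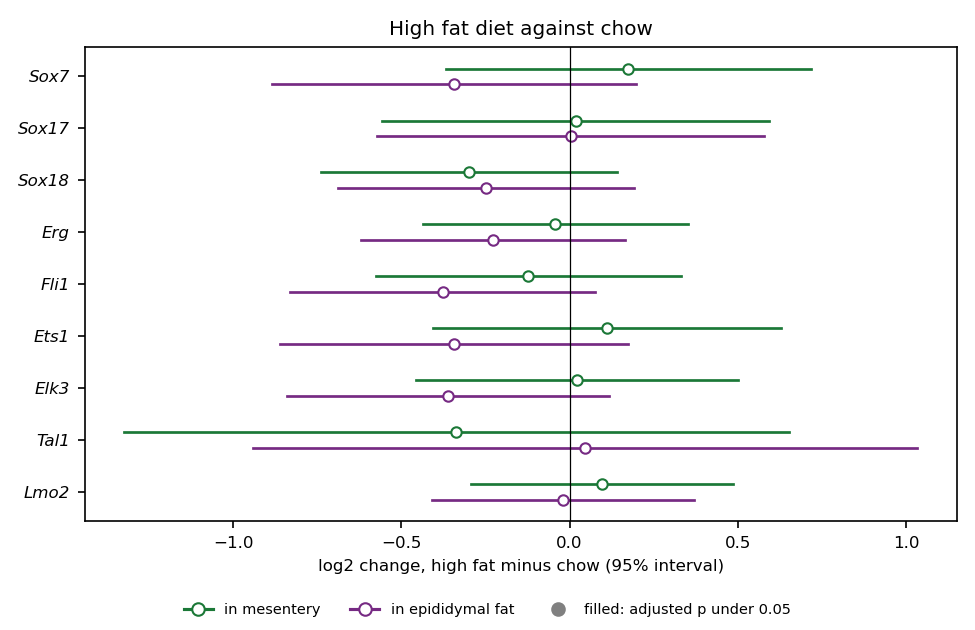
Log2 change of each gene on high fat against chow (horizontal axis), in mesentery and in epididymal fat; points are limma estimates, lines are 95% intervals, and none passed an adjusted p under 0.05. Under the authors' scaling 7 of 9 estimates in epididymal fat are below 0; rescaled to the endothelial markers all 9 are above 0 and below the median of all genes (0.65).

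Within groups most members went up and down together, Erg the least. The deviation of each library from its group mean was computed for each gene on the log2 scale and correlated between genes over the 12 libraries; these values share library scaling and depth and are a description. Over the 28 pairs without Erg Pearson's r was 0.17 to 0.98 with a median of 0.71. The highest were Elk3 with Fli1 (0.98), Ets1 with Fli1 (0.97) and Ets1 with Elk3 (0.96). Over the 8 pairs with Erg it was -0.17 to 0.40 with a median of 0.24. Without epididymal library A on high fat the medians were 0.64 and -0.10. With the mean of the 12 endothelial markers r ran from 0.42 for Lmo2 to 0.92 for Fli1, and it was 0.47 for Erg. Moving together was thus not particular to the members. Mesenteric library C on chow (number 87) and epididymal library A on high fat (number 88) were low for most members. Epididymal library C on chow, also numbered 87, lay below its group mean for all but Sox18 and Erg. Mesenteric library A on high fat, also numbered 88, was mixed. It lay above its group mean for Sox7 (0.20), Sox17 (0.26), Tal1 (0.74) and Lmo2 (0.04), and below it for the rest. In mesenteric library C on chow, 8 of 9 members lay below their group mean, Tal1 by the most (-0.86), and Erg lay above it by 0.10. Epididymal library B on high fat lay above its group mean for all 9. The endothelial markers deviated in the same direction in mesenteric library C on chow (-0.24) and in epididymal libraries A (-0.48) and B (0.52) on high fat.

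**Figure D5:**
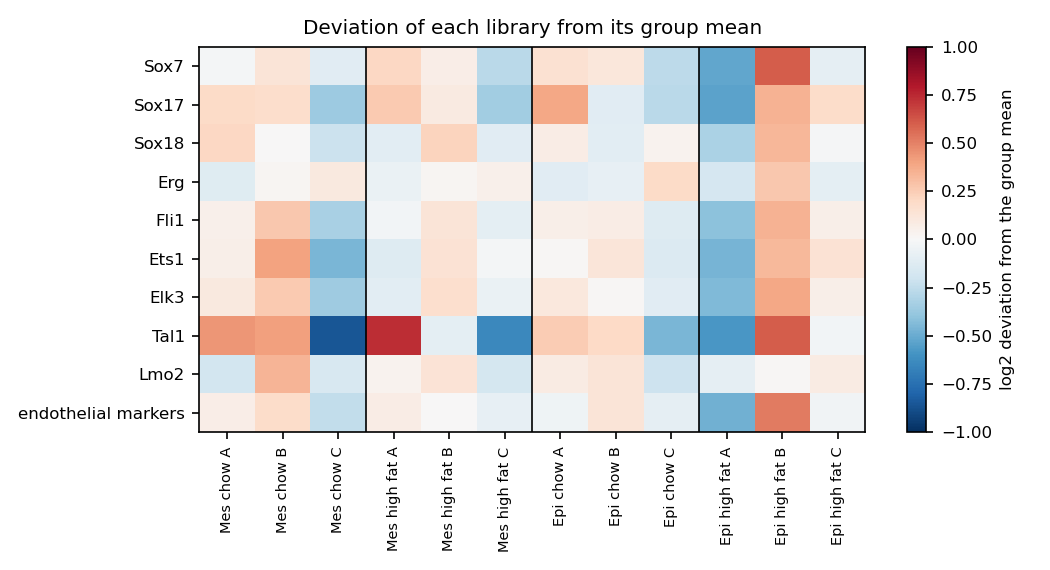
Deviation of each library from the mean of its group on the log2 scale (colour) for the 9 genes and the mean of the 12 endothelial markers (rows) in the 12 libraries (columns). Epididymal library A on high fat is low in all rows and library B of that group high, while the row of Erg stays within -0.17 and 0.27.

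Each member was then set against the endothelial markers within a library, as its log2 level minus their mean, which removes the scaling. Sox18 was the member that stayed separate and lower in epididymal fat on both diets: 0.26 to 0.59 above the markers in mesentery on chow and -1.10 to -0.73 in epididymal fat. On high fat, it was 0.08 to 0.49 in mesentery and -0.72 to -0.37 in epididymal fat. Sox7, Erg, Fli1 and Ets1 were separate and higher in epididymal fat on both diets. Over all genes 26% were separate and higher on both diets on this measure and 1.26% separate and lower. For Fli1 the values were -1.77 to -1.60 in mesentery and -1.30 to -1.14 in epididymal fat on chow, and -1.79 to -1.56 and -1.22 to -0.96 on high fat. For Sox7 the group means differed by 0.74 on chow and 0.66 on high fat. Elk3 overlapped, at -1.38 to -1.19 and -1.45 to -1.18 on chow. Each separated comparison has an exact two-sided permutation p of 0.1, the smallest possible, so none of the 36 comparisons of this kind could pass. The marker mean itself differed by -0.44 on chow and -0.88 on high fat. Of its 12 genes, 6 were lower and 1 higher (Cldn5) on chow, and 8 were lower and 1 higher (Cldn5) on high fat. Cldn5 raised the mean, and the median change of the 12 was -0.92 on chow and -1.05 on high fat.

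The genes whose profile over the 12 libraries was most like that of a member were found by Pearson's r of the log2 levels. There were 9868 candidates with a mean of at least 100 normalized counts. Group means were not removed, so a shared difference between the tissues raises r, and the genes named are the highest of all candidates. For Sox18 they were Thbd (0.990), the thrombin receptor thrombomodulin, Ahr (0.986), the aryl hydrocarbon receptor, and Colgalt2 (0.985). In mesentery Thbd averaged 5207 normalized counts on chow and 3909 on high fat, and 892 and 646 in epididymal fat. For Elk3 the leading gene was Arhgef15 (0.979), an endothelial exchange factor, at 3550 and 2991 in mesentery and 2007 and 1312 in epididymal fat. For Fli1 it was Tcf4 (0.959), for Lmo2 Parp12 (0.965), for Tal1 Anks1 (0.956), for Ets1 Ccdc102a (0.958), for Sox17 Zbtb24 (0.967) and for Sox7 Npdc1 (0.937). Erg had the least like neighbours, led by Diaph2 (0.878) and the junction gene Jam2 (0.825).

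Other members of the 2 families differed in single genes, where 12.8% of all genes passed on chow and 8.34% on high fat. Of 15 other ETS factors tested, Etv1 was higher in epididymal fat on chow, at 953, 496 and 337 normalized counts against 159, 97.7 and 113 (log2 change 2.16, adjusted p = 0.00166 in limma). Elf1 was lower there (-0.60, adjusted p = 0.0309 in limma). On high fat Spi1 alone passed, at 2804, 1755 and 4419 in epididymal fat against 494, 38.8 and 547 in mesentery (3.66, adjusted p = 0.0208 in limma). Spi1, also called PU.1, is a myeloid ETS factor and belongs to the macrophage markers, whose sums are given above. The list's median was -0.37 on chow and -0.09 on high fat, and 0.07 and 0.71 when rescaled to the endothelial markers (all genes 0.34 and 0.91). Of 7 other SOX factors tested, Sox13 was lower on both diets, at 1024, 1197 and 635 in mesentery and 609, 459 and 344 in epididymal fat on chow. Its log2 change was -1.0 on chow (adjusted p = 0.0424 in limma) and -1.38 on high fat (adjusted p = 0.0126 in limma).

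Of 18 other endothelial transcription factors, 4 were higher in epididymal fat on chow (Hhex, Bcl6b, Meox2 and Nr2f2) and 5 lower (Foxo1, Hey1, Klf2, Klf4 and Nkx2-3). On high fat Meox2 was higher, and Mef2c, Foxo1 and Nkx2-3 were lower. The shares of all genes that passed, in either direction, were 12.8% on chow and 8.34% on high fat. Nkx2-3, a homeobox factor of gut and spleen vessels, showed the sharpest contrast of tissues in the list. Mesenteric libraries had 992, 1187 and 1094 normalized counts on chow and 561, 801 and 723 on high fat, and it was listed at 0 in all 6 epididymal libraries, which allows up to 2.12 to 3.37 normalized counts in a library. Meox2, a homeobox factor of fat and muscle capillaries, was at 351, 461 and 804 in mesentery and 3829, 3319.7 and 2904 in epididymal fat on chow, with log2 changes of 2.71 on chow (adjusted p = 0.000507 in limma) and 1.62 on high fat (adjusted p = 0.0201 in limma). Nr2f2, a venous and lymphatic factor, changed by 1.33 on chow (adjusted p = 0.0177 in limma) and Klf4, which responds to flow, by -1.24 (adjusted p = 0.0111 in limma). The list's median was -0.20 on chow and -0.41 on high fat, and 0.24 and 0.47 when rescaled to the endothelial markers (all genes 0.34 and 0.91).

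Vessel genes held to be under ETS or SOX factor control were more often lower than higher in epididymal fat under the authors' scaling. Of 32 tested, 13 were lower and 3 higher (Vwf, Cldn5 and Aplnr) on chow, and 16 were lower and 1 higher (Cldn5) on high fat. Among all genes 5.47% were lower and passed on chow and 3.43% on high fat. The median was -0.68 on chow and -0.96 on high fat. Rescaled to the endothelial markers, all 12 of which are on this list, 11 were lower and 9 higher on chow and 8 lower and 11 higher on high fat, with medians of -0.23 and -0.09. On that scale 2.2% of all genes were lower and 16.6% higher on chow, and 1.07% lower and 30.5% higher on high fat, with medians of 0.34 and 0.91. Plvap, which builds the diaphragms of fenestrae and caveolae, was at 175846, 205657 and 119755 normalized counts in mesentery and 15128, 12340.3 and 9889.7 in epididymal fat on chow, with a log2 change of -3.73 (adjusted p = 1.04e-05 in limma). Clec14a changed by -2.40 (adjusted p = 2.12e-05 in limma) and Flt1, a VEGF receptor, by -2.10 (adjusted p = 0.000485 in limma). Cldn5, a tight junction protein and known target of Erg and Sox18, was at 555, 722 and 1383 in mesentery and 15133, 20509 and 12312 in epididymal fat, with a log2 change of 4.25 (adjusted p = 8.46e-05 in limma), opposite to Sox18. On recovered reads edgeR called 18 of the 84 tested genes of these 5 lists on chow and 16 on high fat, where limma called 30 and 27; of the genes given with values above it did not call Elf1, Spi1, Sox13, Ldb1 or Klf4. For diet, limma called 0 of the 84 in mesentery and 0 in epididymal fat. At an unadjusted p under 0.05 it gave 7 and 21, beside 6.15% and 6.94% of all genes. For diet edgeR called 0 in either tissue, and DESeq2 called 1 in mesentery (Cldn5) and 8 in epididymal fat (Cbfa2t3, Emcn, Etv1, Foxo1, Gata2, Nos3, Plvap and Spi1).

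Promoter sequence was at hand for 3 of the 9 members (RefSeq, GRCm38.p6), and the 250 bases before a start are shown because the ETS factors above bind the GGAA core. Capitals mark GGAA on either strand, read as GGAA or TTCC.
Elk3, chr10:93311160-93311409, minus strand: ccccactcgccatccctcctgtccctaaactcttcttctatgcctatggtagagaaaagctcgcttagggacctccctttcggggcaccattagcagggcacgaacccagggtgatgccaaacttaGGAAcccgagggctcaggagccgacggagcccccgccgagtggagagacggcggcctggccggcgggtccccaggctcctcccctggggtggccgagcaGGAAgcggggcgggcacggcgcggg
Tal1, chr4:115056176-115056425, plus strand: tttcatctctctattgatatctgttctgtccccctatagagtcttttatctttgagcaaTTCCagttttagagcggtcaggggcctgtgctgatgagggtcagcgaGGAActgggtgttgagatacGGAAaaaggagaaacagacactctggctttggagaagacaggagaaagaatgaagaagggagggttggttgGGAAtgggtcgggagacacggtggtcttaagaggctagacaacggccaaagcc
Erg, chr16:95586594-95586843, minus strand: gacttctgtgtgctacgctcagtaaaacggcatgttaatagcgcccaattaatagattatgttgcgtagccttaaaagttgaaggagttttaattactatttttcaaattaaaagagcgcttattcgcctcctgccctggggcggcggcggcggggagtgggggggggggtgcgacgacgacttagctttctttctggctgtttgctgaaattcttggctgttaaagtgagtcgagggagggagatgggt
The Elk3 window held 2 cores, the window at the first listed Tal1 start 4, and that at the first listed Erg start 0. Windows at 2 further Erg starts held 4 and 2, and 1 at a further Tal1 start held 3. Of 32851 promoter windows of this length, 93.4% held at least 1 core, with a median of 3. A match is a run of letters and not a bound site.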

How the data were processed

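The deposited table holds 27825 genes in 12 libraries. Its values are a signal, normalized counts per gene, which the authors made with STAR 2.7.9a, featureCounts of Subread and DESeq2 1.34.0 on the mm39 build, per the submitters' processing notes. The order and the settings of these steps are not given in the sources used here. Every value (100%, within 1e-06) was a whole number of reads divided by a size factor, and no gene had fewer than 51 reads in total. The size factors matched those of DESeq2's method to within 3.55e-15. Read totals were 8348897 to 25397963, counted on listed genes only. The floors cover counting error only, since the reads carry no molecular identifiers. Intervals of the limma estimates rest on the spread between the libraries, as the p-values do.

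Log2(normalized count + 1) values were fitted with limma 3.58.1 in R 4.3.3, with a mean-variance trend and 4 group means, on the 22238 genes with a mean of at least 10. The 5 contrasts were diet in each tissue, tissue on each diet, and how far the 2 diet effects differ. Benjamini-Hochberg adjustment ran over all genes of a contrast, with a threshold of 0.05. The pseudocount understates changes of low genes. The fit was tested on simulated data. Alternatives were edgeR 4.0.16 and DESeq2 1.42.0 on recovered reads, other pseudocounts, filters and scalings, the number range, a replicate block and each library left out. On recovered reads edgeR called 1984 genes between tissues on chow and 1021 on high fat, and DESeq2 3927 and 2931. The rescaling to 12 endothelial markers was added after seeing the data. Groups came from the sample titles.

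The members and gene lists were chosen with earlier results of these data known. All 9 members were described; a list's genes were named where they passed, with values for up to 3, and the 3 genes most like each member were ranked by Pearson's r. Exon lengths came from GENCODE vM21 by Ensembl identifier, and promoters from RefSeq GRCm38.p6 by symbol, for 3 of 9 members. These builds are not the authors', so no other coordinates are given. A comparison of SOXF sequences is not reported here. Ratios were tested with exact two-sided permutation tests.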

Additional observations from a re-analysis of the deposited data

How the results depend on the processing

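Of the 5 counts of called members, 3 were 0 under every alternative and 2 moved. On chow 1 member passed; 2 passed with a filter at a mean of 50, with the number range as a covariate and in DESeq2 (Sox18 and Tal1 each time), 2 with rescaling to the endothelial markers (Sox18 and Sox7), and 3 with the libraries numbered 50 to 53 alone (Sox18, Elk3 and Tal1). On high fat 2 passed; 4 did with libraries scaled to the same total (Elk3, Ets1, Lmo2 and Sox18), 3 in DESeq2 (Elk3, Lmo2 and Sox18), 1 with TMM scaling, 1 in edgeR and 5 with rescaling to the endothelial markers (Erg, Fli1, Sox17, Sox18 and Sox7), a scale on which 31.5% of all genes passed and 30.5% were higher. Over all genes, 4349 of 22238 passed on chow with the libraries numbered 50 to 53 alone, against 2843 in the main fit. On high fat 1989 passed with libraries scaled to the same total and 1201 with TMM scaling, against 1854. The counts of edgeR and DESeq2 over all genes are given above. With each library left out in turn the counts of members ran from 1 to 2 on chow and from 1 to 2 on high fat. Of the single changes, 984 kept direction and side of the threshold, 78 turned direction, 14 gained a call (4 of them among those that turned) and 8 lost one. The causes were not tested.

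Rescaled to the endothelial markers, the diet change in mesentery turned to 0.086 for Erg and 0.0068 for Fli1, and in epididymal fat to 0.22 for Sox7, 0.32 for Sox18, 0.34 for Erg, 0.19 for Fli1, 0.22 for Ets1, 0.20 for Elk3 and 0.55 for Lmo2. The tissue change turned on chow to 0.20 for Sox17, 0.40 for Ets1 and 0.062 for Lmo2, and on high fat to 0.65 for Sox7, 0.63 for Sox17, 0.82 for Erg, 0.63 for Fli1, 0.38 for Ets1 and 0.38 for Lmo2. The difference of diet effects turned to 0.42 for Sox17, 0.25 for Erg, 0.18 for Fli1, 0.054 for Elk3 and 0.32 for Lmo2. On that scale the median of all genes was 0.12 for diet in mesentery and 0.65 in epididymal fat. It was 0.34 for tissue on chow, 0.91 on high fat and 0.55 for the difference. Scaled to the same total, the diet change turned to 0.094 for Erg and 0.014 for Fli1 in mesentery and to -0.14 for Sox17 and -0.093 for Tal1 in epididymal fat, the tissue change on chow to 0.050 for Ets1, and the difference of diet effects to -0.23 for Sox18. With the libraries numbered 50 to 53 alone the diet change in mesentery turned to -0.29 for Sox17, 0.040 for Erg, -0.054 for Ets1, -0.10 for Elk3 and -0.0016 for Lmo2. The tissue change turned to -0.089 for Fli1 on chow, and to 0.14 for Sox7 and 0.15 for Sox17 on high fat, and the difference of diet effects to 0.43 for Sox17 and 0.031 for Fli1. TMM scaling gave 0.012 for Ets1 on chow, DESeq2 -0.013 for Fli1 on chow and 0.012 for the Sox17 difference, and edgeR 0.010 for the latter.

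Left-out libraries turned further changes, all without a call. In mesentery the diet change ran from -0.16 to 0.19 for Sox17, -0.10 to 0.0064 for Erg, -0.28 to 0.014 for Fli1, -0.12 to 0.31 for Ets1 and -0.16 to 0.15 for Elk3. In epididymal fat it ran from -0.17 to 0.27 for Sox17, -0.26 to 0.34 for Tal1 and -0.12 to 0.045 for Lmo2. The tissue change ran from -0.15 to 0.14 for Fli1 and -0.27 to 0.16 for Ets1 on chow, and from -0.53 to 0.037 for Sox7, -0.43 to 0.015 for Sox17 and -0.19 to 0.033 for Erg on high fat. The difference of diet effects ran from -0.19 to 0.25 for Sox17 and -0.11 to 0.21 for Sox18.

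Libraries share only a number or a letter, and nothing says that these mark shared animals. The deviations of libraries with the same number correlated at 0.03, 0.53 and 0.58 on chow and -0.15, 0.15 and -0.11 on high fat. With the replicate block (number for tissue, letter for diet) 1 member passed on chow, 2 on high fat and 0 in the other contrasts, as without it. Over all alternatives the genes called, of all tested, ranged from 1 to 150 for diet in mesentery (3 in the fit reported), 23 to 588 in epididymal fat (122), 1516 to 4349 for tissue on chow (2843), 728 to 7014 on high fat (1854) and 1 to 130 for the difference (1). Depth limits Tal1 most, at 54 to 343 reads a library.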
